A study of Homo sapiens with 12 samples.

Results

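The genes of glycolysis and of the hypoxia response were followed in bulk RNA of MyLa cells. MyLa is an established line grown from cutaneous T cell lymphoma, in which malignant T cells home to the skin. The genes were 39 named members, 26 of glycolysis and its regulation and 13 of the hypoxia response, picked by gene symbol from the 59050 gene names of the deposited count table. The 4 groups of 3 libraries each were cells kept for 24 h with DMSO alone, with 3.2 nM romidepsin (an inhibitor of histone deacetylases), with 5.7 uM afatinib dimaleate (an inhibitor of the kinases of the ERBB receptor family), or with both drugs. Interleukin-2 (20 ng/mL) and an equal volume of DMSO were common to all groups, the DMSO group included, and no other cell line was used. Nothing in the labels tells if replicate libraries are separate cultures. The p-values therefore cover only the spread among libraries, which may be technical.

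Glycolysis splits glucose into pyruvate. Glucose enters through SLC2A transporters, hexokinase traps it, phosphofructokinase commits it to the pathway, and lactate dehydrogenase turns pyruvate into lactate, which leaves through SLC16A carriers. Cells short of oxygen raise many of these genes through the hypoxia-inducible factors, whose alpha subunits HIF1A and EPAS1 are marked for destruction by the EGLN prolyl hydroxylases while oxygen is present. Activated T cells and many lymphomas run glycolysis with oxygen present, so both programmes can be transcribed in ordinary culture. The labels name no change of oxygen or glucose in these cultures.

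Libraries held 8972228 to 12696653 counts. Levels are given as CPM, library-scaled counts (TMM factors) on a common total, and a gene with 0 counts could lie below 3 counts, or 0.229 to 0.344 CPM, a limit for counting error only. Of the 39 members, 36 passed the filter on low counts and were tested, among 16208 tested genes in all. The lactate carrier SLC16A1 (0 to 0.180 CPM), the carbonic anhydrase CA9 (0 to 0.258 CPM) and the peptide hormone precursor ADM (0.0803 to 0.701 CPM) were not tested. The members took 0.889 to 1.17% of all counts in a library. Of 12 T cell markers, CD2, CD3D, CD3G, CD247, IL2RA, TRAC and TRBC2 were tested, while CD3E, CD5, CD7 and CD28, which define T cells as well, had at most 7 counts in any library. The summed level of the 12 was 1550.1 to 1638 CPM with DMSO, 539.7 to 562 with romidepsin, 1070.3 to 1106 with afatinib and 313 to 325 with the combination. Most of each sum was IL2RA, with means of 1225, 423, 835 and 243 CPM in the same order. Fibroblast markers, of which COL1A1 and COL3A1 carried the counts and DCN had none, summed to 173 to 199, 26.1 to 32.5, 98.1 to 103 and 14.7 to 17.3 CPM in the same order. Keratinocyte markers, mostly KRT10 and SFN with KRT1 at 0, summed to 199.9 to 255, 137 to 147, 192 to 224 and 128 to 147 CPM, and monocyte and macrophage markers, mostly CSF1R, to 6.87 to 8.23, 29.3 to 36.6, 6.27 to 6.82 and 16.1 to 19.2 CPM. The keratinocyte keratin KRT5 had 59 counts in DMSO replicate 1, 94 in DMSO replicate 2, 126 in afatinib replicate 3 and 43 in combination replicate 1. The other 8 libraries held 1 count of it or none. The part of these markers in the results was not tested, and results that changed without those 4 libraries, an alternative added after seeing the data, are given with that value.

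Romidepsin raised most of the hypoxia genes and split the glycolysis genes, and afatinib lowered more members than it raised. The combination lowered most of the glycolytic enzymes, and the members that romidepsin raised at least 2-fold rose at least 2-fold there too. Of these rises, those of EPAS1, NDRG1 and BNIP3L were smaller than with romidepsin alone, and those of SLC2A3, ALDOC and ALDOA were larger. A member was called where its adjusted p was below 0.05. The single libraries named below for a lost call were not always the only alternatives that ended it. Over all comparisons, 11 member calls were lost with library size as the only scaling, and 10 when every gene with a count was tested. With romidepsin 19 of the 36 tested genes of the group rose, 11 fell and 6 did not pass, where 62.6% of all tested genes were called (31.1% higher and 31.5% lower). With afatinib 8 members rose, 17 fell and 11 were not called, where 45.4% of all tested genes were called (22% higher and 23.3% lower). With the combination 16 members rose, 18 fell and 2 were not called, where 74.3% of all tested genes were called (37.2% higher and 37.1% lower). Without the 4 libraries with keratin reads, which leaves 1 DMSO library, 18 rose and 9 fell with romidepsin, 7 and 10 with afatinib, and 16 and 13 with the combination.

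Changes of at least 2-fold were mostly rises under romidepsin. Among the called members, 9 rose and 1 fell at least 2-fold with romidepsin, where 13.3% of all tested genes rose and 10.9% fell by as much. With afatinib no member rose and 2 fell at least 2-fold, against 6.36% and 2.54% of all tested genes. With the combination 9 rose and 3 fell, against 21.1% and 18.3%. The median log2 fold change over the tested members was 0.23 with romidepsin, -0.12 with afatinib and -0.08 with the combination, where the medians of all tested genes were -0.00, 0.00 and -0.01. The 3 comparisons share the DMSO libraries.

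The hypoxia genes and the enzymes of the pathway parted. Of the 11 tested hypoxia members 9 rose and 1 fell with romidepsin (median log2 fold change 0.74), 4 rose and 4 fell with afatinib (0.24), and 8 rose and 2 fell with the combination (0.77). Of the 15 enzymes that turn glucose into pyruvate, 5 rose and 9 fell with romidepsin (median -0.27), 1 rose and 9 fell with afatinib (-0.33), and 4 rose and 11 fell with the combination (-0.48). Of all tested genes 31.1% rose and 31.5% fell with romidepsin, 22% and 23.3% with afatinib, and 37.2% and 37.1% with the combination. The 5 of 15 enzymes that rose with romidepsin were thus near the share of all genes. The same shares stand beside the counts by role given below. In bulk RNA a lower level in every cell and fewer cells with the RNA cannot be told apart, here and in all results that follow.

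**Figure D1:**
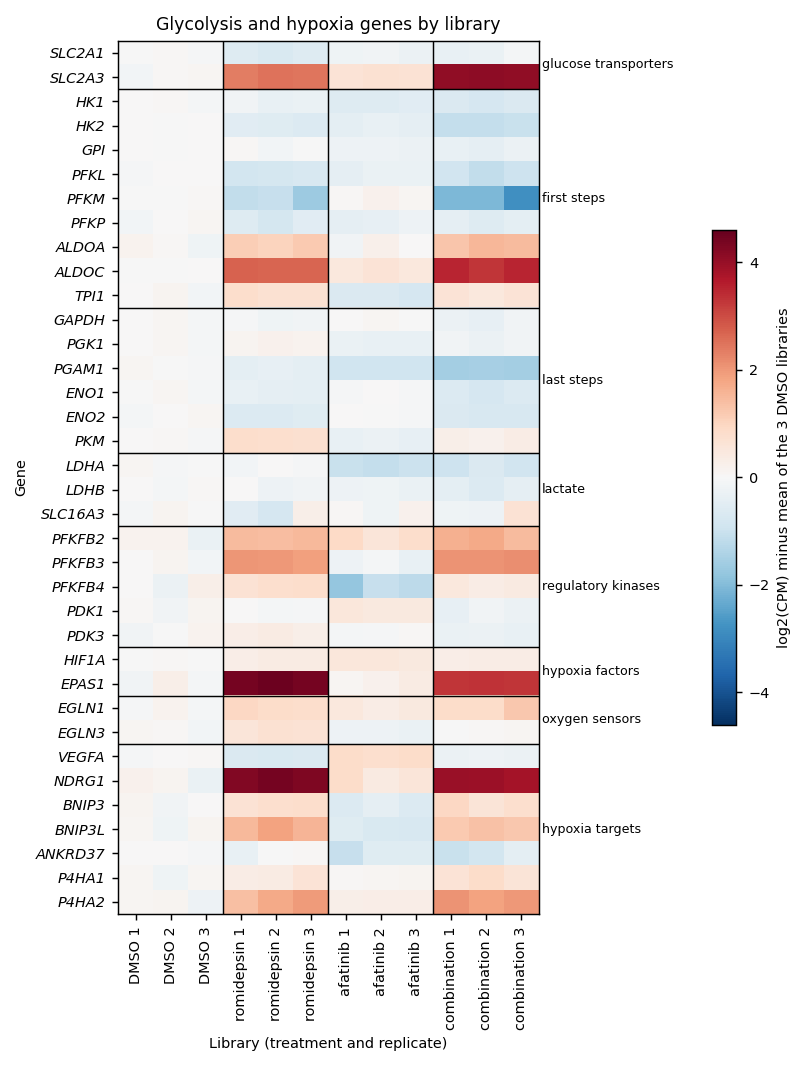
Colour gives the log2 CPM of each of the 36 tested members (rows, grouped by role) in each of the 12 libraries (columns), minus the mean of the 3 DMSO libraries, from blue (lower) to red (higher). SLC2A3, ALDOC, EPAS1 and NDRG1 are the deepest red in the romidepsin and combination columns, and PFKM and PGAM1 are among the bluest in the combination columns.

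Before the values, 4 promoter stretches show what the start regions of these genes hold. The hypoxia-inducible factors bind a short core, ACGTG or GCGTG, and ACGTG is also part of the E-box CACGTG, which MYC and other factors bind. The 3 motifs were searched on both strands in the 250 bases before each RefSeq start, in 60 windows of 33 member genes, on GRCh38.p14. The remaining members, SLC2A3, NDRG1, BNIP3L, VEGFA, PFKFB2 and SLC16A1, had no window, so the motif results do not cover them. CACGTG reads alike on both strands and holds ACGTG on each, so 1 E-box counts as 2 matches of ACGTG. The bases printed are those that also lie before the gene's own start in the annotation of the count table, with each ACGTG or GCGTG match of either strand in capitals. They are the lactate dehydrogenase gene LDHA on the + strand (chr11:18394313-18394559, 247 bases, 5 ACGTG matches), the aldolase gene ALDOC on the - strand (chr17:28576949-28577145, 197 bases, 2 ACGTG matches and 1 of GCGTG), the mitophagy receptor gene BNIP3 on the - strand (chr10:131982014-131982173, 160 bases, 2 ACGTG and 4 GCGTG matches), and PDK1 on the + strand (chr2:172555123-172555372, 250 bases), whose window held no match, although the other RefSeq window of PDK1 held 2. The 4 stretches were picked with the changes of their genes known. LDHA, ALDOC and BNIP3 hold a core in the bases shown, and PDK1 holds none there. Whether a core goes with the direction of a change was not tested.
LDHA: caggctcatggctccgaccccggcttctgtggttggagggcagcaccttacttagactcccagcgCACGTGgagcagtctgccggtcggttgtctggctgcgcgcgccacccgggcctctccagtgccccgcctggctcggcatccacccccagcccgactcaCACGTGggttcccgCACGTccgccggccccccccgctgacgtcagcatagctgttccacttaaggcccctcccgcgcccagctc
ALDOC: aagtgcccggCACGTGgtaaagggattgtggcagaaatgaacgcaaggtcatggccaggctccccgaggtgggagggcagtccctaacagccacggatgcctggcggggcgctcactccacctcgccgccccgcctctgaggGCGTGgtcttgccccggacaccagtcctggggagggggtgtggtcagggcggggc
BNIP3: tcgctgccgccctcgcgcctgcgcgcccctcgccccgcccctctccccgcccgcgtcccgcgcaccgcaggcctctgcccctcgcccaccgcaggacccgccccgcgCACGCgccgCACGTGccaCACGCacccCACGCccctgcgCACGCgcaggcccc
PDK1: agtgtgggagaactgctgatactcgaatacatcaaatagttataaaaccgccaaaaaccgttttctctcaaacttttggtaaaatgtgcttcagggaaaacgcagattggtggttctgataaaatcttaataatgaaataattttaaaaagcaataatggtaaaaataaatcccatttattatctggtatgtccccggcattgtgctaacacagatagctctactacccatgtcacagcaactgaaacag

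ACGTG occurred in 23 of the 60 member windows (38.3%), from 20 of 33 genes, and in 18.5% of all 35116 windows. GCGTG occurred in 19 (31.7%), against 32.2% of all windows, and CACGTG in 8 (13.3%), against 6.34%. Either core occurred in 35 windows of 27 genes (58.3%), against 43.2% of all windows. Windows of 1 gene overlap and share bases, so these shares are descriptions. A match is a stretch of letters and not a bound site, and a window without one says only that these letters are not in it.

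The glucose transporters moved apart. SLC2A3 (GLUT3, GRCh38 chr12:7919230-7936187, - strand) takes up glucose with high affinity and is typical of neurons and of activated lymphocytes. Its level was 47.5, 54.4 and 55.6 CPM with DMSO and 268, 293 and 292 CPM with romidepsin. It was 81.3, 84.5 and 82.4 CPM with afatinib and 877, 917 and 890.4 CPM with the combination. The groups did not overlap, and the combination libraries lay above all others. SLC2A3 rose 5.41-fold with romidepsin (log2 fold change 2.44, SE 0.06, edgeR adjusted p = 2.28e-34), 1.58-fold with afatinib (0.66, SE 0.07, adjusted p = 9.18e-12) and 17.1-fold with the combination (4.09, SE 0.06, adjusted p = 2.32e-43). Its near-identical copy SLC2A14 held 0 to 82 counts per library, which came to 0.619% of the counts of SLC2A3. Reads that map to both were left out of the counts, so the level of SLC2A3 is uncertain by that share and by the reads lost.

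SLC2A1 (GLUT1), the transporter that supplies basal uptake in most cells, ranged from 115 to 124 CPM with DMSO, 73.3 to 79.6 with romidepsin, 99.1 to 107 with afatinib and 93.0 to 111 with the combination. It fell with romidepsin (log2 fold change -0.62, edgeR adjusted p = 5.63e-11), less so with the combination (-0.25, adjusted p = 0.000763) and with afatinib (-0.20, adjusted p = 0.0116). The afatinib call of SLC2A1 was lost in 5 of 20 alternatives. Among them were those without DMSO replicate 2 (-0.18, edgeR adjusted p = 0.0557), afatinib replicate 1 (-0.19, 0.054) or afatinib replicate 3 (-0.16, 0.107). Without the 4 libraries with keratin reads it was lost as well (-0.09). The combination call of SLC2A1 was also lost without those 4 libraries, which leaves 1 DMSO library (log2 fold change -0.09). Summed, both transporters reached 172 ± 6.61 CPM with DMSO, 361 ± 12.5 with romidepsin, 186 ± 5.10 with afatinib and 995 ± 21.7 with the combination (SD, n = 3).

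Of the 9 genes of the first steps 5 fell and 3 rose with romidepsin, 6 fell and 1 rose with afatinib, and 6 fell and 3 rose with the combination. ALDOA, ALDOC and TPI1 were those that rose with romidepsin and with the combination, and ALDOC the one that rose with afatinib. HK2, the inducible hexokinase that binds mitochondria, stood at 224, 219.5 and 222 CPM with DMSO, and at 153, 149.9 and 145 CPM with romidepsin. It stood at 161, 176 and 165 CPM with afatinib and at 104, 103 and 109 CPM with the combination. All treated libraries of HK2 lay below DMSO and the combination libraries lay lowest. The log2 fold change of HK2 was -0.57 with romidepsin, -0.41 with afatinib and -1.08 with the combination (SE 0.06 each, edgeR adjusted p at most 6.79e-08). HK1, the constitutive hexokinase, fell from 204 to 226 CPM with DMSO to 170.5 to 190.3 with romidepsin, 141 to 150.4 with afatinib and 126 to 137 with the combination. Its romidepsin call (-0.27, adjusted p = 0.000119) was lost without the keratin libraries (-0.14, adjusted p = 0.181). GPI, which turns glucose phosphate into fructose phosphate, was not called with romidepsin (-0.02, 95% interval -0.14 to 0.09) and fell with afatinib (-0.25) and the combination (-0.35), and its afatinib call was lost without the keratin libraries (-0.22, adjusted p = 0.071).

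Phosphofructokinase, the committed step, is built of 3 kinds of subunit that pair in tetramers. PFKM, the muscle-type subunit, stood at 19.2, 19.2 and 20.5 CPM with DMSO and at 8.94, 9.51 and 6.12 CPM with romidepsin. With afatinib it stood at 20.6, 22.4 and 20.8 CPM, and with the combination at 4.69, 4.74 and 2.75 CPM. The romidepsin libraries lay below DMSO, the combination libraries lay below those of romidepsin, and the afatinib libraries lay just above DMSO. PFKM fell 2.42-fold with romidepsin (log2 fold change -1.28, SE 0.15) and 4.86-fold with the combination (-2.28, SE 0.16, edgeR adjusted p = 2.56e-17), and was not called with afatinib (0.12, 95% interval -0.15 to 0.38). Both other subunits fell in every treated group. PFKL, the liver-type subunit, changed by -0.78, -0.34 and -0.99 on the log2 scale with romidepsin, afatinib and the combination, with libraries at 133 to 141 CPM with DMSO and 62.6 to 75.5 CPM with the combination. PFKP, the platelet-type subunit, changed by -0.64, -0.33 and -0.48 in the same order, with libraries at 66.2 to 77.4 CPM with DMSO and 41.6 to 50.1 CPM with romidepsin. Of PFKM's exon bases, 5.5% overlap SENP1, and reads in shared bases were counted for neither gene.

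The aldolases, which split fructose bisphosphate, rose. ALDOC (the promoter printed above holds 2 ACGTG matches) is the brain-type isoform and a known hypoxia target. It stood at 59.7, 59.3 and 61.5 CPM with DMSO and at 393, 389 and 383 CPM with romidepsin. It stood at 84.9, 91.9 and 85.0 CPM with afatinib and at 676, 586 and 678 CPM with the combination. No groups overlapped. ALDOC rose 6.45-fold with romidepsin (log2 fold change 2.69, SE 0.06), 1.45-fold with afatinib (0.54, SE 0.07, edgeR adjusted p = 2.29e-09) and 10.7-fold with the combination (3.43, SE 0.06, adjusted p = 2.33e-40). ALDOA, the main aldolase of muscle and of most cells, had low counts here: 16.8, 15.8 and 13.1 CPM with DMSO, 33.2, 31 and 35.2 with romidepsin, 13.7, 17.7 and 15.5 with afatinib, and 36.3, 43.4 and 41.3 with the combination. ALDOA rose 2.19-fold with romidepsin (log2 fold change 1.13, SE 0.11) and 2.66-fold with the combination (1.41, SE 0.11), while the afatinib libraries overlapped DMSO (0.04, 95% interval -0.20 to 0.29). Of its exon bases 54.7% overlap other annotated genes, and reads there were counted for neither, so the level of ALDOA is a lower limit and should not be set against ALDOC.

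TPI1, which interconverts the 2 triose phosphates, went in opposite directions under the drugs. It stood at 722, 778 and 659.5 CPM with DMSO and at 1253, 1176 and 1171 CPM with romidepsin. It stood at 457, 449 and 418 CPM with afatinib and at 1103, 994 and 1111 CPM with the combination. Romidepsin and combination libraries lay above every DMSO library and afatinib libraries lay below. The log2 fold change was 0.74 with romidepsin, -0.71 with afatinib and 0.57 with the combination (SE 0.06 each, edgeR adjusted p at most 1.43e-12).

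Of the 6 genes of the last steps, from GAPDH to pyruvate kinase, 4 fell and 2 (PGK1 and PKM) rose with romidepsin. With afatinib 3 fell and 3 were not called, and with the combination 5 fell and PKM rose. GAPDH, the enzyme often used as a reference transcript, was the most abundant member, at 3291, 3441 and 3032 CPM with DMSO and 3118, 2869.6 and 2869.8 CPM with romidepsin. It stood at 3320.4, 3445 and 3195 CPM with afatinib and at 2706, 2501 and 2894 CPM with the combination. The romidepsin and afatinib libraries overlapped DMSO, and the combination libraries lay below it. GAPDH changed by 0.03 on the log2 scale with afatinib (edgeR adjusted p = 0.717) and by -0.27 with the combination (adjusted p = 4.89e-05), a call lost without the keratin libraries (-0.10, adjusted p = 0.346). Its romidepsin call (-0.14, SE 0.06, edgeR adjusted p = 0.0311) was lost in 11 of 20 alternatives. Of these, 7 left out a single library (log2 fold change -0.14 to -0.10, edgeR adjusted p 0.0513 to 0.178). The libraries were DMSO replicate 1 or 2, romidepsin replicate 2 or 3, and any afatinib replicate. The call was also lost with RLE factors, with library size as the only scaling, and in a fit of only the groups compared. Without the keratin libraries the change turned to 0.01. Of GAPDH's exon bases 17.6% overlap another annotated gene, and reads there were counted for neither. Pseudogenes of GAPDH share its sequence and reads mapping to several places were dropped, so its level is uncertain.

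PGAM1, the phosphoglycerate mutase, fell in every treated group, and most with the combination. It stood at 875, 814 and 802 CPM with DMSO and at 612, 642 and 602 CPM with romidepsin. It stood at 442, 440.2 and 435 CPM with afatinib and at 281, 291 and 282 CPM with the combination. The groups formed 4 separate steps, with DMSO highest and the combination lowest. The fall was 1.34-fold with romidepsin (log2 fold change -0.43), 1.89-fold with afatinib (-0.92) and 2.92-fold with the combination (-1.54, SE 0.05, edgeR adjusted p = 6.29e-30).

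PKM, pyruvate kinase, which makes pyruvate and ATP, rose with romidepsin (1275 to 1342 CPM with DMSO, 2186 to 2288 with romidepsin, log2 fold change 0.77) and with the combination (1487 to 1647 CPM, 0.26), and fell with afatinib (1015 to 1084 CPM, -0.33). The counts do not separate its spliced forms. ENO1, the ubiquitous enolase, and ENO2, the neuronal one, fell with romidepsin (-0.41 and -0.60) and the combination (-0.68 and -0.71) and were not called with afatinib (-0.03 and -0.01). Their afatinib libraries overlapped DMSO. PGK1, which makes the first ATP of the pathway, rose slightly with romidepsin (0.16, edgeR adjusted p = 0.00632) and fell with afatinib (-0.33) and the combination (-0.20). The romidepsin call of PGK1 was lost without DMSO replicate 3 (0.12, adjusted p = 0.0515), and its afatinib and combination calls were lost without the keratin libraries (-0.20 and -0.06, adjusted p = 0.0701 and 0.572).

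Summed over the 15 enzymes, the level was 8756 ± 393 CPM with DMSO, 9554 ± 280.5 with romidepsin, 7580.0 ± 213 with afatinib and 8033 ± 451 with the combination (SD, n = 3). GAPDH alone made up 30.9 to 43.8% of these sums. Without it the sums were 5502 ± 186, 6601 ± 141, 4259.8 ± 88.2 and 5332 ± 259.9 CPM in the same order, so the mean of the combination was inside the range of the DMSO libraries (5306 to 5676 CPM), with combination replicate 2 below that range at 5038 CPM. The sum for the 9 genes of the first steps was 1730.3 ± 61.8 CPM with DMSO, 2347 ± 76.5 with romidepsin, 1269 ± 21.2 with afatinib and 2332 ± 143 with the combination, although 5, 6 and 6 of these 9 genes fell. TPI1 and ALDOC made up most of the sum with romidepsin and with the combination.

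At the lactate step, LDHA separated the drugs. LDHA makes the subunit that favours lactate, and its promoter above holds 5 ACGTG matches. It stood at 782, 709 and 742 CPM with DMSO and at 689.7, 755 and 725 CPM with romidepsin. It stood at 369, 348 and 372 CPM with afatinib and at 389, 465 and 404 CPM with the combination. Romidepsin and DMSO overlapped, and both afatinib-treated groups lay well below them. LDHA fell 2.05-fold with afatinib (-1.03 on the log2 scale, SE 0.06, edgeR adjusted p = 3.79e-20) and 1.77-fold with the combination (-0.83, SE 0.06), and with romidepsin its change was -0.04 (95% interval -0.16 to 0.07). LDHB, the subunit that favours pyruvate, was lower in level at 18.4 to 20.5 CPM with DMSO and was called only with the combination (-0.50, adjusted p = 0.000193). Its afatinib libraries, at 15.8 to 17.2 CPM, lay below DMSO without passing the test (-0.25, adjusted p = 0.0808). Of LDHB's exon bases 33.4% overlap another annotated gene. SLC16A3 (MCT4), the lactate exporter, was near the limit of detection at 1.15 to 3.13 CPM over all libraries and was not called in any comparison, with 95% intervals of -0.93 to 0.47 with romidepsin, -0.64 to 0.71 with afatinib and -0.49 to 0.82 with the combination.

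Of the 5 regulatory kinases 4 rose with romidepsin, and PDK1 was not called. The PFKFB enzymes set the level of the fructose bisphosphate that activates phosphofructokinase, and the PDK enzymes switch off pyruvate dehydrogenase. PFKFB3, the isoform with the strongest kinase activity, stood at 72.7, 77.3 and 65.5 CPM with DMSO and at 289.7, 283 and 264 CPM with romidepsin. It stood at 61.1, 68.0 and 57.1 CPM with afatinib and at 303, 298 and 317 CPM with the combination. Romidepsin and combination libraries lay far above DMSO, and afatinib libraries overlapped it. PFKFB3 rose 3.88-fold with romidepsin (log2 fold change 1.96, SE 0.07) and 4.26-fold with the combination (2.09, SE 0.07, edgeR adjusted p = 2.8e-31). Its small afatinib fall (-0.21, adjusted p = 0.0121) was lost without DMSO replicate 1 or 2 or afatinib replicate 1 or 3 (-0.19 to -0.14, adjusted p 0.0735 to 0.174) and turned to 0.01 (adjusted p = 0.95) without the keratin libraries.

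PFKFB2, the heart-type isoform, stood at 17.5, 17.5 and 12.6 CPM with DMSO, at 43.0, 41.9 and 44.0 with romidepsin, at 29.6, 23.2 and 27.5 with afatinib, and at 48.7, 52.3 and 42.6 with the combination. Every treated library was higher than every DMSO library. PFKFB2 rose 2.72-fold, 1.69-fold and 3.02-fold in the 3 treated groups (edgeR adjusted p at most 3.11e-07). PFKFB4, an isoform induced by hypoxia in many tumours, stood at 12.4, 10 and 14.5 CPM with DMSO, at 19.4, 20.7 and 21.2 with romidepsin, at 3.50, 5.87 and 5.22 with afatinib, and at 16.9, 15.3 and 16.1 with the combination. It was highest with romidepsin and lowest with afatinib, with no overlap among groups. PFKFB4 rose 1.65-fold with romidepsin (log2 fold change 0.72, SE 0.14), fell 2.54-fold with afatinib (-1.34, SE 0.17, adjusted p = 3.32e-09) and rose slightly with the combination (0.38, adjusted p = 0.0133). The last call was lost without DMSO replicate 2 (0.25, adjusted p = 0.135) and without the keratin libraries (0.18, adjusted p = 0.444).

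The printed window of PDK1 held neither core, while its other RefSeq window held 2 ACGTG matches. PDK1 ranged from 19.6 to 23.7 CPM with DMSO, 20.5 to 22.3 with romidepsin, 29.7 to 31.2 with afatinib and 17.1 to 19.4 with the combination. It was not called with romidepsin (log2 fold change -0.05, 95% interval -0.26 to 0.17), rose with afatinib (0.46, edgeR adjusted p = 0.000235) and fell with the combination (-0.28, adjusted p = 0.0171). The afatinib call of PDK1 was lost without the keratin libraries (0.40). Its combination call was lost in 8 of 20 alternatives. Among them were those without DMSO replicate 1 or 3, afatinib replicate 1 or 3 or combination replicate 1 (-0.24 to -0.20, edgeR adjusted p 0.0539 to 0.132). PDK3 rose with romidepsin (0.30, adjusted p = 0.000861) and fell with the combination (-0.32, adjusted p = 0.000502), and was at 47.5 to 59.8 CPM with DMSO. Without the keratin libraries the romidepsin call of PDK3 was lost (0.19, adjusted p = 0.155).

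Of the hypoxia-inducible factors, EPAS1 moved most among all members with romidepsin. EPAS1 (HIF-2 alpha, chr2:46293667-46386697, + strand) is best known from endothelium. Its level was 4.92, 6.66 and 5.26 CPM with DMSO and 119, 126 and 119 CPM with romidepsin. It was 5.99, 6.34 and 7.31 CPM with afatinib and 54.5, 56.1 and 54.2 CPM with the combination. Afatinib overlapped DMSO, and the combination lay between DMSO and romidepsin. EPAS1 rose 21.8-fold with romidepsin (4.45 on the log2 scale, SE 0.10, edgeR adjusted p = 3.74e-36) and 9.86-fold with the combination (3.30, SE 0.11), and was not called with afatinib (0.24, 95% interval -0.06 to 0.54). The endothelial markers PECAM1, VWF and CDH5 summed to at most 0.284 CPM in any library.

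HIF1A, the ubiquitous alpha subunit, stood at 109, 116 and 109 CPM with DMSO, at 136, 143 and 144 with romidepsin, at 159, 158 and 152 with afatinib, and at 137, 140.3 and 141 with the combination. It was higher in every treated library than in any DMSO library. The rises of HIF1A were 1.27-fold, 1.41-fold and 1.25-fold (log2 fold change 0.34, 0.49 and 0.33, SE 0.06 each, edgeR adjusted p at most 3.57e-06). HIF1A protein is set mainly by its destruction, which these counts do not measure.

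Both oxygen sensors rose with romidepsin. EGLN1 (PHD2), the main prolyl hydroxylase, ranged from 22.3 to 26.5 CPM with DMSO, 41.6 to 46.2 with romidepsin, 30.2 to 33.3 with afatinib and 42.5 to 56.0 with the combination, with log2 fold changes of 0.87, 0.42 and 0.98 (edgeR adjusted p at most 0.000714). Of its exon bases 55.8% overlap another annotated gene. EGLN3 (PHD3), itself a hypoxia target, stood at 69.9, 69.0 and 60.6 CPM with DMSO, at 96.6, 107 and 104 with romidepsin, at 56.4, 57.0 and 53.9 with afatinib, and at 65.1, 68.6 and 71.1 with the combination. Romidepsin libraries lay above DMSO, afatinib libraries below it, and the combination overlapped it. EGLN3 rose with romidepsin (0.62, SE 0.07, adjusted p = 1.13e-10) and fell with afatinib (-0.25, adjusted p = 0.00399), a call lost without DMSO replicate 1 (-0.20, adjusted p = 0.0613) and without the keratin libraries (-0.06, adjusted p = 0.754).

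The hypoxia targets did not move as a block. NDRG1, a stress-induced gene and a common marker of the hypoxia response, stood at 5.59, 5.25 and 3.94 CPM with DMSO and at 93.0, 102 and 95.1 CPM with romidepsin. It stood at 8.66, 6.53 and 7.15 CPM with afatinib and at 77.1, 74.8 and 70.0 CPM with the combination. Every treated library lay above DMSO, those with romidepsin by far the most. NDRG1 rose 19.5-fold with romidepsin (log2 fold change 4.29, SE 0.11, edgeR adjusted p = 2.68e-34), 1.51-fold with afatinib (0.60, SE 0.16, adjusted p = 0.00147) and 15-fold with the combination (3.91, SE 0.11). VEGFA, the main angiogenic factor, fell with romidepsin and the combination, where NDRG1 rose, and rose with afatinib as NDRG1 did. It stood at 85.7, 90.2 and 94.5 CPM with DMSO, at 57.0, 54.8 and 56.7 with romidepsin, at 162, 155 and 163 with afatinib, and at 74.6, 75.9 and 74.4 with the combination. The afatinib libraries were highest and the romidepsin libraries lowest, with no overlap. VEGFA fell 1.60-fold with romidepsin (-0.68, SE 0.07), rose 1.78-fold with afatinib (0.83, SE 0.06, adjusted p = 1.59e-15) and fell 1.20-fold with the combination (-0.26, SE 0.07, adjusted p = 0.00032).

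**Figure D2:**
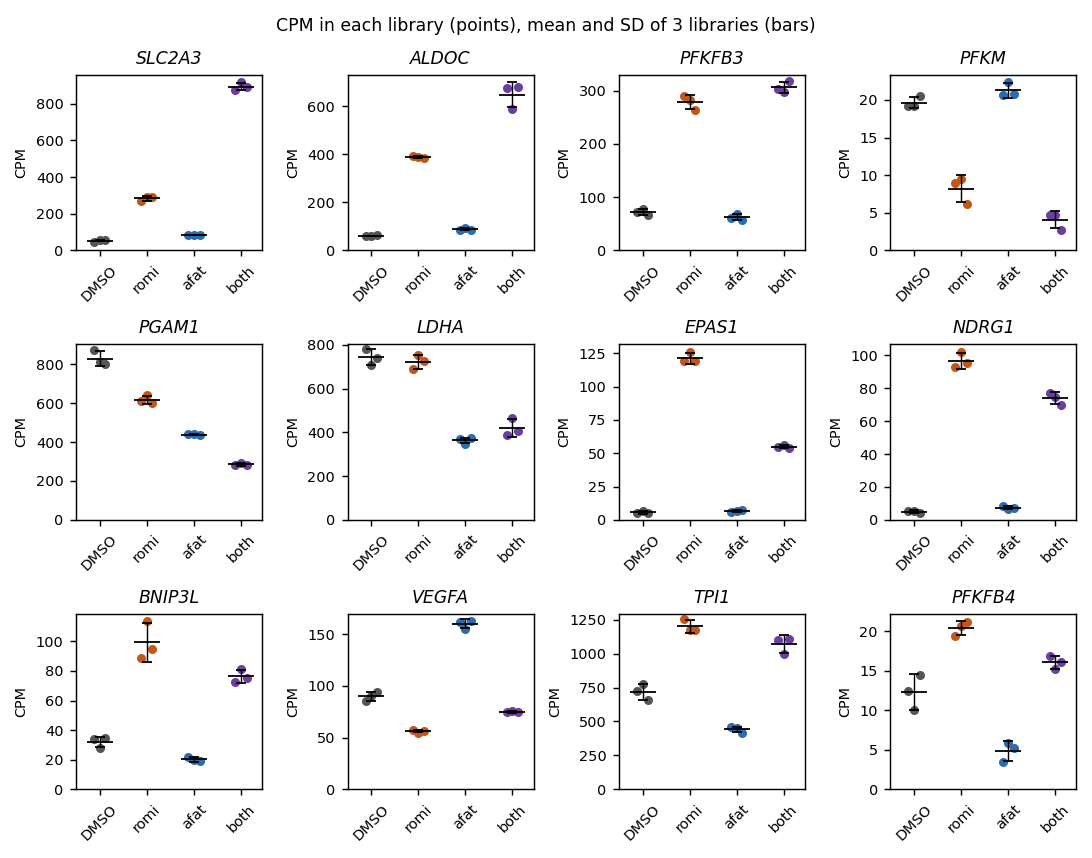
Each panel plots the CPM of 1 gene (vertical axis, from 0) in the 3 libraries of each group as points, with the mean and SD as bars, for DMSO, romidepsin (romi), afatinib (afat) and the combination (both). SLC2A3 reaches 877 to 917 CPM with both drugs, PGAM1 steps down through the 4 groups, and VEGFA and TPI1 lie on opposite sides of DMSO under romidepsin and afatinib.

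The mitophagy receptors BNIP3L and BNIP3, which mark mitochondria for removal, rose with romidepsin and fell with afatinib. BNIP3L stood at 33.8, 27.8 and 34.4 CPM with DMSO and at 88.9, 114 and 95.1 CPM with romidepsin. It stood at 21.9, 19.7 and 19.0 CPM with afatinib and at 72.6, 81.1 and 75.5 CPM with the combination. The groups with romidepsin lay above DMSO and the afatinib group below it, without overlap. BNIP3L rose 3.08-fold with romidepsin (log2 fold change 1.62, SE 0.09), fell 1.59-fold with afatinib (-0.67, SE 0.10, edgeR adjusted p = 3.76e-07) and rose 2.38-fold with the combination (1.25, SE 0.09). BNIP3, with 4 GCGTG and 2 ACGTG matches in its printed promoter, ranged from 6.87 to 8.34 CPM with DMSO and changed by 0.74, -0.56 and 0.77 in the same order. The afatinib call of BNIP3 (adjusted p = 0.0068) was lost without the keratin libraries (-0.50, adjusted p = 0.15).

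The collagen prolyl hydroxylases rose with romidepsin and were not called with afatinib. P4HA2 stood at 3.50, 3.53 and 2.80 CPM with DMSO and at 8.59, 10.8 and 12.6 CPM with romidepsin. It stood at 3.96, 4.07 and 4.02 CPM with afatinib and at 13.7, 11.7 and 13.1 CPM with the combination. Both groups with romidepsin were far above DMSO. P4HA2 rose 3.25-fold with romidepsin (log2 fold change 1.70, SE 0.19) and 3.91-fold with the combination (1.97, SE 0.18), against 0.29 with afatinib (95% interval -0.14 to 0.73). P4HA1 rose 1.36-fold with romidepsin and 1.61-fold with the combination, from 24.3 to 29.4 CPM with DMSO. ANKRD37, a small ankyrin protein induced by hypoxia, was low at 4.29 to 4.50 CPM with DMSO, and fell with afatinib (-0.70, edgeR adjusted p = 0.0166) and the combination (-0.75, adjusted p = 0.00505). The afatinib call of ANKRD37 was lost without DMSO replicate 1 (-0.66, adjusted p = 0.0501), afatinib replicate 1 (-0.54, adjusted p = 0.107) or the keratin libraries (-0.70, adjusted p = 0.17), and the combination call without the keratin libraries (-0.53, adjusted p = 0.199). Of its exon bases 40.3% overlap the gene UFSP2.

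Across all members, 26 of the 30 romidepsin calls, 17 of the 25 afatinib calls and 28 of the 34 combination calls held under every alternative run. The members that lost an afatinib call without the 4 libraries with keratin reads were SLC2A1, GPI, PGK1, PFKFB3, PDK1, EGLN3, BNIP3 and ANKRD37, while SLC2A3, HK1, HK2, ALDOC, TPI1, PGAM1, LDHA, PFKFB4, HIF1A, VEGFA, NDRG1 and BNIP3L were among those that did not.

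The drugs were also set against each other directly. The difference is between these 6 libraries, and the DMSO and combination libraries enter only through the shared scaling and estimate of the spread. Romidepsin gave the higher level in 23 of the 36 tested members and afatinib in 11, with 2 not called, where 64.6% of all tested genes were called (32.2% higher with romidepsin and 32.4% lower). At least 2-fold, 12 members were higher and 2 lower with romidepsin, against 12.3% and 13.7% of all tested genes. The median log2 difference was 0.47 over the members and 0.00 over all tested genes. EPAS1 differed most, 18.5-fold higher with romidepsin than with afatinib (log2 difference 4.21, 95% interval 4.0 to 4.41), followed by NDRG1 (12.9-fold, 3.69), BNIP3L (4.90-fold, 2.29), PFKFB3 (4.50-fold, 2.17), ALDOC (4.45-fold, 2.15) and PFKFB4 (4.19-fold, 2.07). Higher with afatinib were VEGFA (2.85-fold, log2 difference -1.51, 95% interval -1.64 to -1.38) and PFKM (2.63-fold, -1.39, 95% interval -1.70 to -1.09). Among the enzymes, TPI1 was 2.72-fold, PKM 2.14-fold, ALDOA 2.13-fold and LDHA 1.99-fold higher with romidepsin.

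The members not called between the drugs were LDHB (log2 difference 0.14, 95% interval -0.10 to 0.38) and SLC16A3 (-0.26, 95% interval -0.95 to 0.43). Of the 34 calls 30 held under every alternative run. Among 20 alternatives, GAPDH lost its call in 2, HK2 in 3, HIF1A in 5 and ANKRD37 in 5, single libraries among them. GAPDH (-0.17) lost its call without afatinib replicate 2 or romidepsin replicate 3 (-0.14 each, edgeR adjusted p = 0.0789 and 0.0564), HK2 (-0.16) without the same libraries (-0.12 and -0.14, adjusted p = 0.109 and 0.0787), HIF1A (-0.15) without afatinib replicate 1 or 2 or romidepsin replicate 1 (-0.13 to -0.12, adjusted p 0.0901 to 0.119), and ANKRD37 (0.60) without afatinib replicate 1 or romidepsin replicate 2 or 3 (0.46 to 0.56, adjusted p 0.0701 to 0.142).

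**Figure D3:**
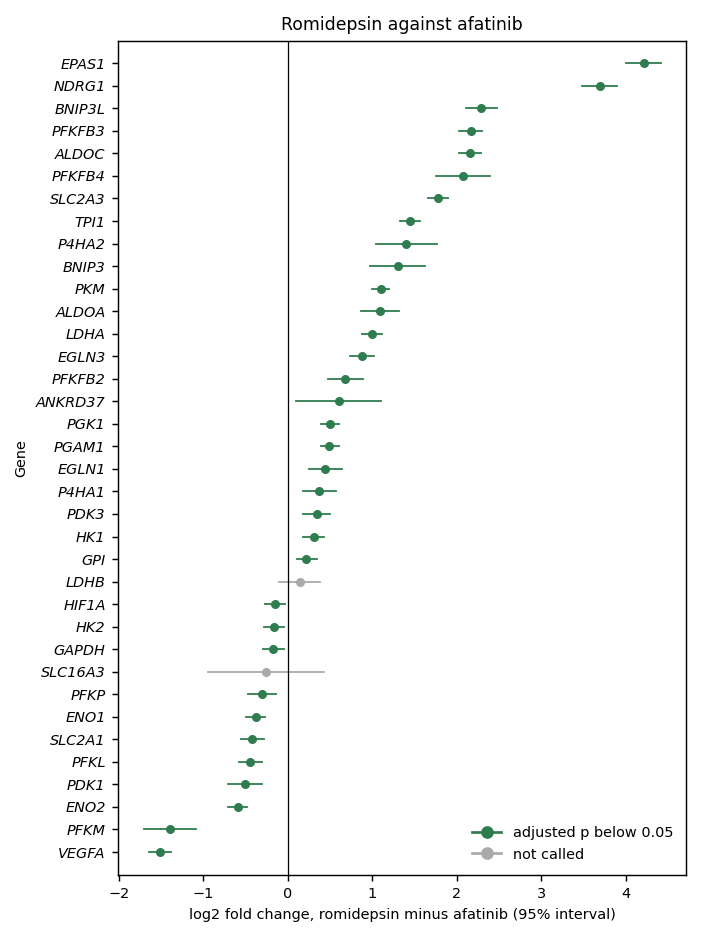
Points give the log2 fold change of romidepsin against afatinib for each of the 36 tested members (rows, ordered by size) with its 95% interval as a line, green where the adjusted p is below 0.05 and grey otherwise. EPAS1 and NDRG1 stand apart at the top at 4.21 and 3.69, and VEGFA and PFKM at the bottom at -1.51 and -1.39.

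The combination was then compared with each drug, which asks what the other drug added. Against romidepsin, adding afatinib raised 6 members, lowered 19 and left 11 not called, where 54.3% of all tested genes were called (25.1% higher and 29.2% lower). At least 2-fold, 1 rose and 3 fell, against 7.98% and 4.8% of all tested genes. SLC2A3 rose a further 3.15-fold (log2 fold change 1.66, 95% interval 1.54 to 1.77) and ALDOC a further 1.67-fold (0.74). PGAM1 fell 2.17-fold (-1.12, 95% interval -1.23 to -1.01), EPAS1 2.21-fold (-1.15, 95% interval -1.30 to -0.99), PFKM 2.00-fold (-1.0, 95% interval -1.38 to -0.63) and LDHA 1.72-fold (-0.78). With library size as the only scaling, 10 members were higher in place of 6. Among 20 alternatives, ALDOA and P4HA1 lost their calls in 3 each, PFKL and PFKFB4 in 4 each, ANKRD37 in 7 and TPI1 in 9. Calls of 6 members ended without a single library. They were ALDOA (0.28) without romidepsin replicate 2 or combination replicate 2 or 3 (0.22 to 0.26, edgeR adjusted p 0.0501 to 0.0908), P4HA1 (0.24) without romidepsin replicate 1 or 2 or combination replicate 2 (0.16 to 0.20, 0.0991 to 0.193), and PFKL (-0.20) without romidepsin replicate 3 or combination replicate 2 (-0.18 to -0.14, 0.0575 to 0.115). The others were PFKFB4 (-0.35) without the same libraries as PFKL (-0.33 to -0.31, adjusted p 0.0724 to 0.0732), ANKRD37 (-0.65) without romidepsin replicate 2 or 3 or combination replicate 1 or 2 (-0.62 to -0.54, 0.0532 to 0.0908), and TPI1 (-0.17) without DMSO replicate 1, romidepsin replicate 1, afatinib replicate 1 or 3 or combination replicate 2 (-0.14 to -0.12, 0.0502 to 0.0839).

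Against afatinib, adding romidepsin raised 18 members, lowered 11 and left 7 not called, where 69.2% of all tested genes were called (33.4% higher and 35.8% lower). At least 2-fold, 11 rose and 2 fell, against 16.3% and 15.8% of all tested genes. The largest rises were those of SLC2A3 (10.8-fold), NDRG1 (9.92-fold), EPAS1 (8.34-fold), ALDOC (7.42-fold), PFKFB3 (4.94-fold) and BNIP3L (3.78-fold). The largest falls were those of PFKM (5.27-fold) and VEGFA (2.13-fold). LDHA was 1.16-fold higher with the combination than with afatinib (log2 fold change 0.21, edgeR adjusted p = 0.00151), a call lost without combination replicate 2 (0.13, adjusted p = 0.0537). Small differences of PGK1 (0.13), PDK3 (-0.28) and HIF1A (-0.16) lost their calls without afatinib replicate 2 or combination replicate 1 or 3 (0.11 to 0.13, edgeR adjusted p 0.0727 to 0.09), without afatinib replicate 3 (-0.20, 0.0539), and without DMSO replicate 1 or afatinib replicate 1 or 3 (-0.15 to -0.12, 0.0534 to 0.128). Among 20 alternatives, PGK1 lost its call in 4, PDK3 in 2 and HIF1A in 6.

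Whether the combination differed from the sum of both drugs was tested by the interaction, that is, by how far its log2 change lay above or below that of romidepsin and afatinib added up. It was above 0 in 8 members, below 0 in 11 and not called in 17, where 30.2% of all tested genes were called (11.7% above and 18.5% below). Past the size of 2-fold, no member lay above and 2 lay below, against 2.78% and 3.29% of all tested genes. SLC2A3 and PFKFB4, at 1.00 after rounding, lay just under that size. SLC2A3 was the member with the clearest excess, 2.00-fold above the sum (interaction 1.00, SE 0.09, edgeR adjusted p = 3.8e-13). PFKFB4 had an interaction of equal size with a wider error (1.00, SE 0.21, edgeR adjusted p = 0.000243). Its log2 fold change was 0.72 with romidepsin, -1.34 with afatinib and 0.38 with the combination. SLC2A1 (0.57), TPI1 (0.54), PFKP (0.48), PFKFB3 (0.35), LDHA (0.25) and BNIP3 (0.58) were above the sum too.

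Below the sum were EPAS1 (interaction -1.39, SE 0.17, edgeR adjusted p = 5.02e-09), PFKM (-1.12, SE 0.23, adjusted p = 0.000127), NDRG1 (-0.98, SE 0.17, adjusted p = 1.45e-05), PDK1 (-0.69), PFKFB2 (-0.60), PDK3 (-0.58), HIF1A (-0.51), VEGFA (-0.41), EGLN3 (-0.33), ENO1 (-0.25) and PGAM1 (-0.20). For EPAS1 and NDRG1 this was a rise that was smaller with both drugs than with romidepsin alone. For PFKM it was a fall larger than that of romidepsin, while afatinib alone did not lower it. HK2 and PFKL, which fell in all treated groups, had interactions of -0.10 and 0.13 that were not called (95% intervals -0.26 to 0.07 and -0.06 to 0.33). The same held for ALDOC at 0.20 (0.03 to 0.37, adjusted p = 0.0709), ALDOA at 0.24 (-0.08 to 0.56) and P4HA2 at -0.03 (-0.55 to 0.50).

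Of the 19 interaction calls 11 held under every alternative run. Among 19 alternatives, PGAM1 lost its call in 12, BNIP3 in 11, LDHA in 4 and ENO1 in 3. PGAM1 lost its call without DMSO replicate 2 or 3, romidepsin replicate 2, any afatinib replicate or combination replicate 1 or 3 (-0.21 to -0.18, edgeR adjusted p 0.0552 to 0.118), and BNIP3 without DMSO replicate 1 or 3, any romidepsin replicate, afatinib replicate 1 or 3 or combination replicate 1 or 3 (0.48 to 0.60, adjusted p 0.0541 to 0.122). LDHA lost its call without DMSO replicate 1, romidepsin replicate 1, afatinib replicate 2 or combination replicate 2 (0.16 to 0.22, adjusted p 0.06 to 0.107). Without the keratin libraries the calls of PFKFB3 (0.15, adjusted p = 0.432), PDK3 (-0.39, adjusted p = 0.0593) and VEGFA (-0.34, adjusted p = 0.0615) were lost. ENO1 lost its call with RLE factors (-0.21, adjusted p = 0.0513) and with DESeq2 (-0.21, 0.0558), and EGLN3 when every gene with a count was tested (-0.29, 0.0707).

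**Figure D4:**
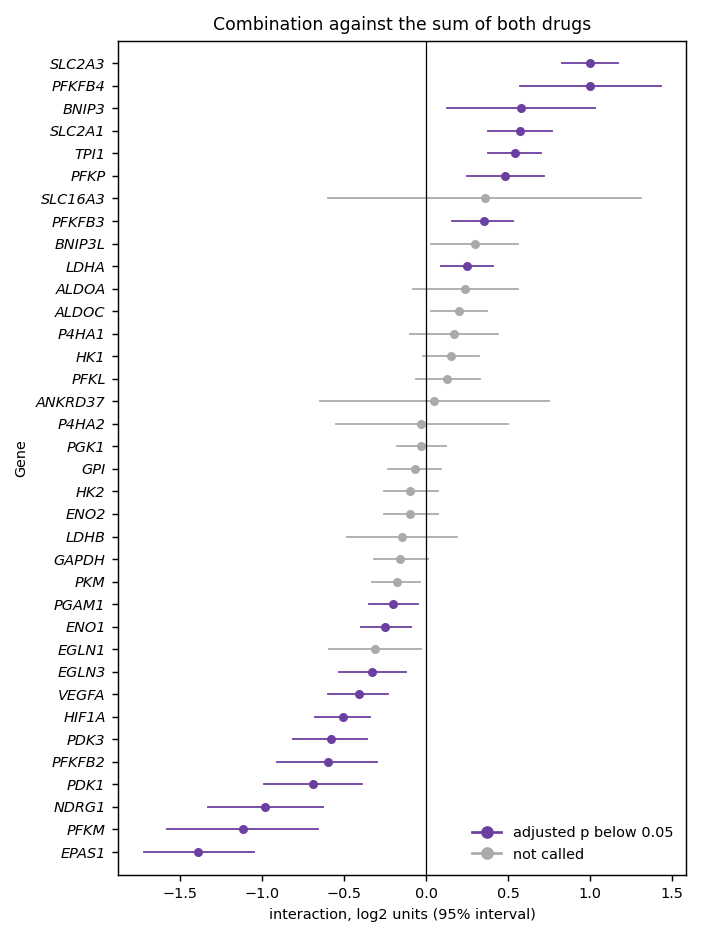
Points give the interaction in log2 units for each of the 36 tested members (rows, ordered by size) with its 95% interval as a line, purple where the adjusted p is below 0.05 and grey otherwise. SLC2A3 and PFKFB4 lie at 1.00 at the top, and NDRG1, PFKM and EPAS1 at -0.98, -1.12 and -1.39 at the bottom.

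Several steps are served by paired genes, and their balance within a library needs no scaling between libraries. The log2 ratio of counts per kb of exon was compared with DMSO for 11 pairs in 3 treated groups, 33 exact two-sided permutation tests in all. With 3 libraries against 3 the smallest p is 0.10, which becomes 0.14 after Benjamini-Hochberg adjustment, so no ratio could pass the threshold, and the separation of the libraries is given as a description. SLC2A3 per kb of exon was below SLC2A1 with DMSO (log2 ratio -1.55 ± 0.13) and with afatinib (-0.68 ± 0.05), and above it with romidepsin (1.52 ± 0.12) and with the combination (2.81 ± 0.15; SD, n = 3, exact p = 0.10 for each treated group). The libraries of these groups lay apart, so the order of both transporters was exchanged in every library that had received romidepsin.

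ALDOC to ALDOA moved from 2.55 ± 0.21 with DMSO to 4.10 ± 0.10 with romidepsin, 3.04 ± 0.13 with afatinib and 4.56 ± 0.23 with the combination. PFKM to PFKP moved from -2.26 ± 0.08 to -2.91 ± 0.46 with romidepsin and -4.10 ± 0.48 with the combination, and the other way to -1.81 ± 0.13 with afatinib. LDHB to LDHA moved from -4.23 ± 0.06 to -3.44 ± 0.11 with afatinib, while the romidepsin and combination libraries overlapped DMSO. HK1 to HK2 shifted towards HK1 with romidepsin and the combination (0.30 and 0.38 above DMSO) and towards HK2 with afatinib (-0.17). PFKL to PFKP lay apart from DMSO only with the combination (-0.51), and ENO2 to ENO1 only with romidepsin (-0.20). PDK3 to PDK1 shifted by 0.35 with romidepsin and by -0.50 with afatinib on the log2 scale, and overlapped DMSO with the combination. BNIP3L to BNIP3 and P4HA2 to P4HA1 were higher with romidepsin (0.88 and 1.24) and with the combination (0.49 and 1.28), and overlapped DMSO with afatinib. PFKFB3 to PFKFB4 was higher than DMSO in all 3 treated groups (1.21, 1.15 and 1.69), through a rise of PFKFB3 with romidepsin and the combination and a fall of PFKFB4 with afatinib. The ratios that hold ALDOA or LDHB are uncertain in level, since these genes lose reads in shared exon bases.

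**Figure D5:**
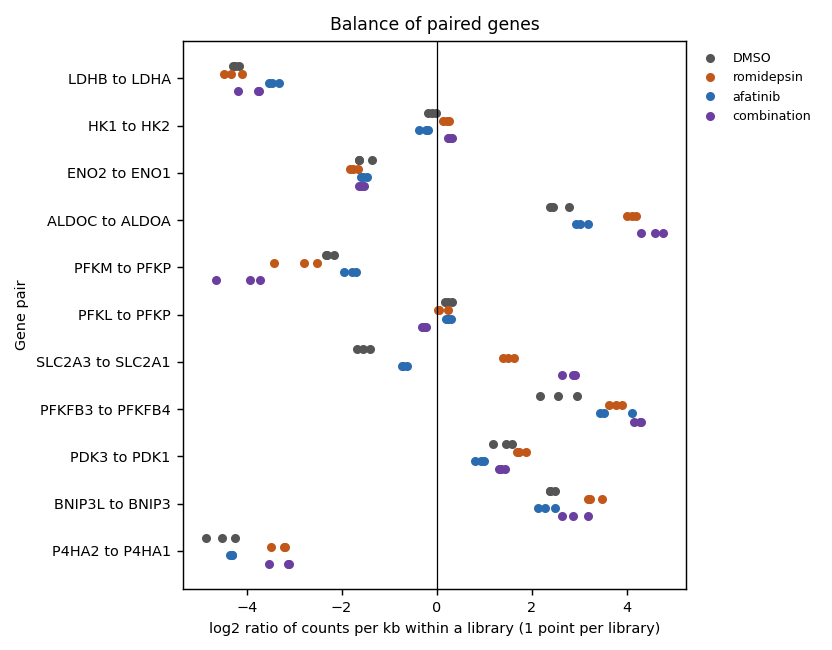
Each point is the log2 ratio of counts per kb of exon of 2 paired genes within 1 library, with the 3 libraries of each group on a line of their own and the vertical line at equal levels. The SLC2A3 to SLC2A1 points cross from below 0 with DMSO and afatinib to above 0 with romidepsin and the combination.

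Members that lie near each other on chromosome 12 moved in different directions. Among the members, GAPDH, TPI1, ENO2 and SLC2A3 lie there in this order, with 328.7 kb, 42.8 kb and 995.5 kb between 1 member and the next. Genes that are not members were left out of this order. With romidepsin TPI1 rose (log2 fold change 0.74) and ENO2, the next member, fell (-0.60), while SLC2A3 rose (2.44).

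Other genes of the same pathways were counted from lists that were also chosen with earlier results of these data known. The shares of all tested genes called, to be set beside each count of these lists, were 62.6% with romidepsin (31.1% higher, 31.5% lower), 45.4% with afatinib (22% higher, 23.3% lower) and 74.3% with the combination (37.2% higher, 37.1% lower), with median log2 fold changes of -0.00, 0.00 and -0.01. Genes were named for the comparisons in which they were among the largest changes of their list and direction, so the same gene may also have passed in a comparison not given. Of 40 other glycolysis and pyruvate genes 24 were tested, and 12 rose and 5 fell with romidepsin, 5 rose and 8 fell with afatinib, and 14 rose and 8 fell with the combination (medians 0.37, -0.10 and 0.71). BPGM, which makes bisphosphoglycerate, rose from 86.3 ± 0.878 CPM with DMSO to 421 ± 26.3 with romidepsin (log2 fold change 2.28), fell to 50.3 ± 4.80 with afatinib (-0.78) and reached 268 ± 11.3 with the combination (SD, n = 3). SLC2A4 (GLUT4), the insulin-dependent transporter, stood at 6.55 ± 0.546 CPM with DMSO, 30.8 ± 1.28 with romidepsin, 1.61 ± 0.362 with afatinib and 45.5 ± 0.958 with the combination, an interaction of 2.57 (SE 0.22, edgeR adjusted p = 5.05e-13). The transporter gene SLC2A13 rose in all treated groups (2.44, 0.92 and 2.95 with romidepsin, afatinib and the combination). SLC2A6 rose with afatinib (0.59). Falls were seen for the enolase ENO3 with romidepsin (-1.08), for EMB, a partner of lactate carriers, with romidepsin (-0.74) and the combination (-1.23), and for PDHB, a subunit of pyruvate dehydrogenase, with the combination (-1.52).

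In the pentose phosphate pathway 6 of 8 genes were tested, and 2 rose and none fell with romidepsin, 4 rose and 1 fell with afatinib, and 3 rose and 2 fell with the combination (medians 0.05, 0.27 and 0.13). TKT rose with the combination (1.24) and TALDO1 with afatinib (0.68). RPIA fell with afatinib (-0.43) and the combination (-0.63). RPE rose with romidepsin (0.34) and fell with the combination (-0.34). Of 12 glycogen genes 10 were tested, with 3 higher and 4 lower with romidepsin, 2 and 5 with afatinib, and 4 and 5 with the combination (medians -0.08, -0.29 and -0.23). GBE1, the branching enzyme, fell from 93.1 ± 4.21 CPM with DMSO to 57.6 ± 2.01, 43.0 ± 0.403 and 24.3 ± 0.692 CPM (-0.69, -1.11 and -1.93). PGM1 fell in the same 3 groups (-0.41, -0.72 and -1.26). GYS1, glycogen synthase, rose with romidepsin (0.51) and the combination (0.80), and PYGB with afatinib (0.50) and the combination (0.51).

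Among 11 other genes of the oxygen-sensing machinery 10 were tested, with 3 higher and 3 lower with romidepsin, 2 and 3 with afatinib, and 1 and 3 with the combination (medians 0.08, 0.01 and -0.01). The share called was near that of all tested genes with either drug and below it with the combination. CITED2, which competes with the hypoxia-inducible factors for their coactivators, rose from 30.0 ± 3.25 CPM with DMSO to 136 ± 7.19 with romidepsin (log2 fold change 2.18), 43.9 ± 2.90 with afatinib (0.55) and 167 ± 8.45 with the combination (2.47). ARNT, the beta subunit, fell with afatinib (-0.26) and the combination (-0.55). RBX1, a subunit of the ligase that takes part in destroying the alpha subunits, fell in all 3 groups (-1.0, -0.56 and -2.14). VHL, the ligase's receptor for the hydroxylated alpha subunits, rose with afatinib (0.44). With romidepsin HIF1AN rose (0.42) and EGLN2 fell (-0.46).

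Of 32 other hypoxia targets 21 were tested, and 11 rose and 2 fell with romidepsin, 4 rose and 8 fell with afatinib, and 14 rose and 3 fell with the combination (medians 0.53, 0.01 and 0.81). With romidepsin the share called in either direction was near that of all tested genes. DDIT4, an inhibitor of mTOR signalling, stood at 83.5 ± 10.9 CPM with DMSO, 711 ± 59.9 with romidepsin, 153 ± 10.6 with afatinib and 343 ± 23.5 with the combination, and its interaction of -1.93 (SE 0.10, edgeR adjusted p = 2.44e-18) was lower than that of any of the 36 tested members. HILPDA, a lipid droplet protein, stood at 29.7 ± 3.20 CPM with DMSO, rose to 139.8 ± 16 with romidepsin (2.23) and 56.1 ± 1.76 with the combination (0.92), and fell to 16.8 ± 1.20 with afatinib (-0.82). KDM3A, a histone demethylase, fell with afatinib (-0.60). BHLHE40, a transcriptional repressor, rose with afatinib (0.63) and fell with romidepsin (-0.29), the transferrin receptor TFRC fell with romidepsin (-0.18), and ERO1A and ZNF395 fell with the combination (-0.56 and -0.50).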

How the data were processed

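RNA of 12 MyLa libraries was sequenced. Per the file headers, the authors' deposited counts are read pairs per GENCODE 31 gene name from featureCounts 2.0.0, with no multi-mapping reads and no strand option, so antisense partners cannot be told apart. Per the submitters' processing notes, STAR 2.7.9a, GRCh38.p12 and DESeq2 1.38.1 were used. A second deposited table, of normalised values that did not follow the counts in size, was not used here.

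The 39 members and all lists were chosen with earlier results of these data known. Counts were fitted with edgeR 4.0.16 (R 4.3.3, quasi-likelihood test, robust, TMM, filterByExpr) on 4 group means over all 12 libraries, with Benjamini-Hochberg adjustment over 16208 genes, threshold 0.05 and 95% intervals. The script was tested on simulated data. Every library's value was printed for members called with a log2 change of 1 or more in size and a mean of 5 CPM or more or the most abundant of their role. Other pathway genes were named by size of change in each list and direction, and the interactions of SLC2A4 and DDIT4 and 2 more values of HILPDA were added after their values were seen. Some genes that this rule names are not reported here. Totals were 8972228 to 12696653 counts. Alternatives were RLE factors, library size only, 2 other filters, DESeq2 1.42.0, a replicate block, only the groups compared, each library left out, and, after seeing the data, 4 libraries left out. Promoter windows are RefSeq's, on GRCh38.p14.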

Additional observations from a re-analysis of the deposited data

Results flagged for a closer look

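In 19 members the change with afatinib differed between cells with and without romidepsin, by the interaction test in edgeR at an adjusted p below 0.05. Values are the afatinib change with romidepsin minus that without it, in log2 units. It was above 0 for the transporters SLC2A3 (1.00) and SLC2A1 (0.57), the kinases PFKFB4 (1.00) and PFKFB3 (0.35), the enzymes TPI1 (0.54), PFKP (0.48) and LDHA (0.25), and the mitophagy receptor BNIP3 (0.58). It was below 0 for the hypoxia factors EPAS1 (-1.39) and HIF1A (-0.51), for EGLN3 (-0.33), NDRG1 (-0.98) and VEGFA (-0.41), for the kinases PDK1 (-0.69), PFKFB2 (-0.60) and PDK3 (-0.58), and for the enzymes PFKM (-1.12), ENO1 (-0.25) and PGAM1 (-0.20). Calls were made in 30.2% of all tested genes by the same test. Of the 19 member calls 11 held under every alternative run. Those of PGAM1 and BNIP3 were lost in 12 and 11 of 19 alternatives.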

How the results depend on the processing

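Over the alternatives run, 4822 of the members' values kept their side of the threshold, and those called also kept their direction. Values not called in either run may have changed sign and are among the 4822. Another 141 lost the call and 39 gained one. The remaining 2 called values lost the call and changed sign. They were GAPDH with romidepsin (0.01) and PFKFB3 with afatinib (0.01), both without the 4 libraries with keratin reads. That alternative tests fewer libraries and also moved the members lower with afatinib from 17 to 10 and all genes called with afatinib from 7351 to 4162. With library size as the only scaling, 10 members were higher with the combination than with romidepsin in place of 6; the cause was not tested. That scaling moved the median of all genes to 0.101 with afatinib and 0.099 with the combination, and the share of called genes that were higher to 62.2% from 48.6% with afatinib. Leaving out each library in turn gave 18 to 19 members higher and 10 to 11 lower with romidepsin, 8 higher and 14 to 17 lower with afatinib, 15 to 16 and 17 to 18 with the combination, 4 to 7 and 16 to 21 for the combination against romidepsin, 17 to 18 and 9 to 13 against afatinib, 22 to 23 and 8 to 11 for romidepsin against afatinib, and 6 to 9 and 10 to 12 for the interaction. With a replicate block, the counts of members were the same: 19 higher and 11 lower with romidepsin, 8 and 17 with afatinib, 16 and 18 with the combination, and 8 and 11 for the interaction. Same-numbered libraries had correlations of deviations of -0.138 to 0.135 over 18 pairs, and differently numbered libraries of -0.127 to 0.084 over 36 pairs. With 3 libraries in each group these correlations cannot decide if the replicate numbers pair the libraries. Depth limits ANKRD37, SLC16A3 and P4HA2 most, and SLC16A1, CA9 and ADM could not be tested.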
